A study of Homo sapiens with 17 samples.

Results

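The genes followed here are 7 cytokine and cytokine receptor genes, 5 of the interleukin 1 system and 2 others: the ligands IL1A, IL1B and IL18, the receptor chains IL1R1 and IL1RAP, and the further cytokines IL24 and IL32. They were taken by symbol from the deposited gene table, in which each had 1 entry, out of 58870 entries in all. The cells were MDA-MB-231, an established line of human triple-negative breast cancer whose label reads Mesenchymal Basal B. They were given TRAIL, a death ligand of the TNF family, at 45 nM, which the labels describe as a suboptimal dose, and RNA was taken at 0, 1, 3, 6, 12 and 24 h. There were 3 libraries at each time except 1 h, of which 2 were analysed. Every library, the 0 h libraries included, carries the same treatment label, the design is 1 cell line, and no group was left untreated at a later time, so time with TRAIL and time in culture cannot be told apart. The labels speak of triplicates without saying whether they were separate cultures, so the p-values measure the spread between these libraries, which may be technical.

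Interleukin 1α, the product of IL1A, and interleukin 1β, the product of IL1B, signal through the same receptor, in which IL1R1 binds the ligand and the accessory chain IL1RAP joins to recruit MYD88 and the IRAK kinases, which lead to NF-κB and MAP kinases. IL1B and IL18 are made as inactive precursors that caspase 1 cleaves in inflammasomes, whereas the IL1A precursor is active without cleavage and is released from damaged cells as an alarm signal. IL24 belongs to the IL10 family and signals through receptors that contain IL20RB with IL20RA or IL22RA1, to JAK1 and STAT3. IL32 has no close relative among cytokines and is expressed by epithelial cells as well as by T and natural killer cells.

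IL1A lies on chromosome 2 from 112773915 to 112784590 and IL1B from 112829751 to 112836903, both on the minus strand, with 45160 bases between them (GENCODE 29, GRCh38, the same assembly as the hg38 named in the submitters' processing notes). IL1R1 is on the plus strand of the same chromosome, from 102064544 to 102179874. IL1RAP is on chromosome 3 from 190514051 to 190659750, plus strand. IL18 is on chromosome 11 from 112143251 to 112164117, minus strand. IL24 is on chromosome 1 from 206897443 to 206904139, and IL32 is on chromosome 16 from 3065297 to 3082192, both on the plus strand. All 7 are protein-coding. The start-site windows of 300 bases given by RefSeq (GRCh38.p14) were found for 6 of the 7 genes, IL18 being the exception, and came to 11 windows, since IL1A and IL32 have 2 each and IL1R1 has 4. The sequences printed here are the stretches just upstream of the 3 genes that were called with at least a 2-fold difference from 0 h (IL1A, IL1B and IL24), up to the first base of any GENCODE 29 exon, each on its gene's strand. The IL1A stretch is chr2:112784591-112784743, the IL1B stretch chr2:112836904-112837029 and the IL24 stretch chr1:206897193-206897442.
IL1A: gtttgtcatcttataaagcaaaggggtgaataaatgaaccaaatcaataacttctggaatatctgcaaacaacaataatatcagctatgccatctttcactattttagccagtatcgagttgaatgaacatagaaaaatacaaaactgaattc
IL1B: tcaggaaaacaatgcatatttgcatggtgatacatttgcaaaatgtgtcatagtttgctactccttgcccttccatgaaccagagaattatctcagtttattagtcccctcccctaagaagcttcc
IL24: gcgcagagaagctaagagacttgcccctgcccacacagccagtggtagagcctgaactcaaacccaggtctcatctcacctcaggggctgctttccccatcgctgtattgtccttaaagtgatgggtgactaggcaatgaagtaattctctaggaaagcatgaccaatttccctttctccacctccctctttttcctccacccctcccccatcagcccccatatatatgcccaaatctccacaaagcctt

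The 11 windows were searched on both strands for the κB consensus of NF-κB and for TGANTCA, the element bound by AP-1. The κB consensus occurred in 1 window, the upstream window of IL32, where 2 overlapping matches, 1 on each strand, share the stretch chr16:3065294-3065323. TGANTCA occurred at 2 places in IL1A, each inside both IL1A windows. Of all 35116 promoter windows of the same length, 11.3% held the κB consensus and 7.71% held TGANTCA. The matches are printed here with the matching bases in capitals, the IL1A matches being at chr2:112784488-112784516 and chr2:112784438-112784466 on the minus strand. For IL32 the capitals mark only the match on the gene's own strand, and the overlapping match on the other strand covers the printed bases GGAGTTTCCC.
IL32 κB match: cctgtactcaGGGAGTTTCCccagccagct
IL1A AP-1 match 1: gcgaagaagacTGACTCAggcttaagctg
IL1A AP-1 match 2: tcattggcgttTGAGTCAgcaaaggtatt
The windows of IL1B, IL24, IL1R1 and IL1RAP held neither set of letters.

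Library totals ran from 13731497 to 19234939 counts. The mesenchymal markers VIM, CD44, AXL, ZEB1 and MSN were present in every library (ZEB1, the lowest, at 31.9 to 65.8 CPM, that is, counts scaled to library depth), and ERBB2 stood at 56.4 to 70.9 CPM. Of the 5 luminal markers, ESR1, PGR and FOXA1 did not exceed 2 counts, whereas KRT19 (298 to 488 CPM) and GATA3 (6.97 to 12.1 CPM) were present. The luminal sum ran from 434 to 468 CPM at 0 h and from 306 to 327 CPM at 6 h. Of the 4 epithelial markers, KRT8 (804 to 1142 CPM), KRT18 (522 to 931 CPM) and EPCAM (13.1 to 19.3 CPM) were present, and CDH1 had 4 to 16 counts. Of 9 leukocyte markers, FCGR3A, CD3E and CD2 had 0 counts in all 17 libraries, PTPRC had at most 5, NKG7 and MS4A1 at most 1 and LYZ at most 6, while CD14 had 11 to 32 and CSF1R 41 to 107. The summed level of the 9 ran from 4.05 to 4.55 CPM at 6 h and from 7.06 to 8.02 CPM at 24 h, with 6.10 to 6.85 CPM at 0 h. A library's slope of log2 CPM on log2 transcript length, taken against the average library, was lowest in the 3 h replicate 2 (-0.14) and highest in the 24 h replicate 2 (0.13), and between -0.064 and -0.010 in the 0 h libraries. The share of counts from mitochondrial genes ran from 7.99% to 8.97% at 3 h and from 3.66% to 4.14% at 24 h, with 5.53% to 8.37% at 0 h. Whether these differences enter the results was tested only for transcript length and GC content, and only in the genes followed here. The values are given where they changed a call. The genes read from lists further on were not examined under that correction. In bulk RNA, a smaller share of expressing cells and less RNA per cell cannot be told apart.

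Over all 6 times together, each of the 7 genes varied (edgeR quasi-likelihood F-test with Benjamini-Hochberg adjustment, adjusted p from 3.2e-05 for IL32 to 0.0368 for IL1B), beside 64.2% of the 15365 genes tested. For IL1B this was not the case by DESeq2 (0.102), with the replicate block (0.0595) or without any 1 of 8 of the 17 libraries (adjusted p up to 0.0827), and for IL18 without the 6 h replicate 2 (0.121) or 3 (0.0684) or with replicates 2 and 3 of 6 h and of 24 h averaged (0.0943). Of the 7 genes, those called against 0 h, that is, with an adjusted p below 0.05, numbered 0, 5, 3, 1 and 4 in order of time from 1 h to 24 h. The corresponding shares of all tested genes were 0.312%, 17.7%, 30.1%, 12.4% and 35.1%. At 1 h, 2 of the 7 had an unadjusted p below 0.05 in edgeR (IL1A and IL1B), beside 5.15% of all genes. IL1A, IL1B, IL24 and IL32 were called higher and IL1R1 lower at 3 h, where 9.04% of all genes were called higher and 8.71% lower. IL1A, IL24 and IL1RAP were called higher at 6 h, where 16.9% of genes were. At 12 h the call was IL24, higher, beside 5.96% of genes. At 24 h IL1A, IL24 and IL1R1 were called higher and IL32 lower, beside 18% and 17.1% of genes. IL1A was called with at least a 2-fold rise at 3, 6 and 24 h, and IL1B and IL24 were at 3 h. Rises of that size were called in 0.651%, 0.41% and 0.547% of all genes at these times. The median log2 fold change of all tested genes lay between -0.022 and -0.0017 at the 5 times. The share of all genes whose libraries did not overlap with those of 0 h was not counted. Full separation of 3 against 3 libraries has an exact two-sided permutation p of 0.1. Where libraries are said not to overlap, this is therefore description only.

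**Figure D1:**
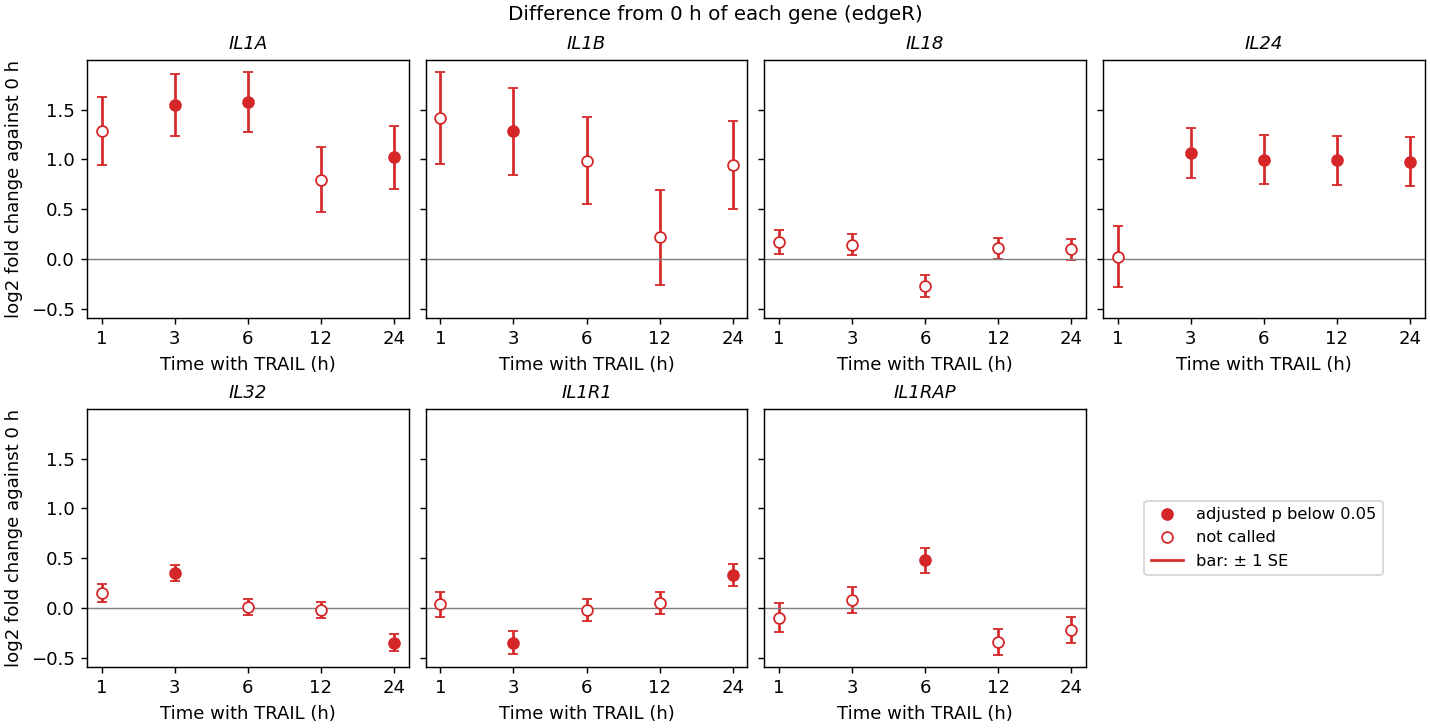
Log2 fold change against 0 h (vertical axis) of each of the 7 genes at 1, 3, 6, 12 and 24 h (horizontal axis), with bars of 1 standard error; filled points had an adjusted p below 0.05 in edgeR. IL1A and IL24 lie at or above 0.98 at every filled point, while the filled points of IL32, IL1R1 and IL1RAP lie between -0.35 and 0.48.

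IL1A, the gene of the alarm cytokine interleukin 1α, was about 3-fold higher at 3 and 6 h than at 0 h, from a level that was low throughout. Its counts were 6, 7 and 8 in the 0 h libraries and 16 and 17 in those of 1 h. The 3 h libraries held 16, 15 and 21, those of 6 h held 25, 16 and 24, those of 12 h 13, 17 and 10, and those of 24 h 15, 14 and 14. Every later library thus held more IL1A counts than every 0 h library, and none of the 17 exceeded 25. No 0 h library reached 10 counts, so IL1A passed the filter on low counts through its later libraries. Scaled to depth, mean IL1A levels in order of time were 0.436 ± 0.0623, 1.07 ± 0.0852, 1.29 ± 0.191, 1.31 ± 0.260, 0.766 ± 0.184 and 0.893 ± 0.0357 CPM (SD, n = 3, and n = 2 for 1 h). The 3 libraries of 0 h held 21 IL1A counts together, which sets a 95% exact Poisson interval of 0.270 to 0.666 CPM, and the 65 counts of 6 h set one of 1.01 to 1.68 CPM. These intervals cover counting error only.

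Against 0 h, IL1A rose at 3 h by a log2 fold change of 1.55 ± 0.308 (SE, adjusted p 0.00186), the 6 h value was 1.57 ± 0.300 (7.5e-04), and the 24 h value was 1.02 ± 0.319 (0.0207). At 1 h it was 1.28 ± 0.342 with an unadjusted p of 0.00114 and an adjusted p of 0.216 in edgeR, and at 12 h it was 0.80 ± 0.323 (adjusted p 0.142). The 24 h call of IL1A did not hold when replicate 1 of 0 h (0.92, adjusted p 0.0838) or replicate 3 of 24 h (0.99, 0.0552) was left out, by DESeq2 (1.03, 0.0749), without a filter on low counts (1.02, 0.0766) or with replicates 2 and 3 of 6 h and of 24 h averaged (1.01, 0.0543). Between 6 h and 12 h the IL1A level fell by 0.78 on the log2 scale (adjusted p 0.0440), a call that 5 of the 6 fits with 1 library left out did not make (-0.90 to -0.59, adjusted p up to 0.177). Under the replicate block this change was -0.77 (adjusted p 0.0595), and DESeq2 gave -0.78 (0.150).

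IL1B, the gene of the inflammasome substrate interleukin 1β, had counts of the same low order and a larger spread between libraries. Its counts were 5, 6 and 7 in the 0 h libraries and 11 and 20 in those of 1 h. The 3 h libraries held 15, 13 and 9, those of 6 h held 18, 6 and 13, those of 12 h 4, 9 and 10, and those of 24 h 11, 14 and 10. The IL1B levels of 1, 3 and 24 h did not overlap with those of 0 h, whereas those of 6 and 12 h did, through 1 library of 6 h (0.398 CPM, replicate 2) and 1 of 12 h (0.274 CPM, replicate 1). Mean IL1B levels in order of time were 0.373 ± 0.0623, 1.01 ± 0.450, 0.922 ± 0.245, 0.746 ± 0.372, 0.427 ± 0.142 and 0.726 ± 0.123 CPM (SD, n = 3, and n = 2 for 1 h).

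IL1B was called at 3 h, with a log2 fold change of 1.28 ± 0.437 (SE, adjusted p 0.0451), and at no other time against 0 h. At 1 h the value was 1.42 ± 0.464 (unadjusted p 0.00573, adjusted p 0.515 in edgeR). For 6, 12 and 24 h the values were 0.99 ± 0.439, 0.22 ± 0.477 and 0.94 ± 0.443 (adjusted p 0.0903, 0.808 and 0.0979), and the 6 h value passed without the 6 h replicate 2 (1.27, 0.0463). The IL1B call at 3 h was narrow. Of the 6 fits with 1 library left out, 5 did not make it (1.12 to 1.41, adjusted p from 0.0881 to 0.148, leaving out any 0 h library or replicate 1 or 2 of 3 h). The call was also lost with the replicate block (1.28, adjusted p 0.0546), limma-voom (1.22, 0.0545), no filter (1.26, 0.0597) and library size alone (1.21, 0.0514). IL1A and IL1B passed the filter on low counts through their later libraries, since none of their 0 h libraries reached 10 counts.

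The 2 ligands were set against each other within each library. The log2 ratio of IL1B to IL1A counts lay between -0.24 and -0.18 in the 0 h libraries, and was -0.52 and 0.23 in those of 1 h. The 3 h libraries gave -0.090, -0.20 and -1.18, those of 6 h -0.46, -1.34 and -0.86, those of 12 h -1.58, -0.88 and 0, and those of 24 h -0.43, 0 and -0.47. At 6 h all 3 ratios lay below the 0 h range, a mean difference of -0.68 (exact two-sided permutation test, p = 0.1, the smallest that 3 against 3 libraries allow). The differences at 1, 3, 12 and 24 h were 0.063, -0.28, -0.61 and -0.089 (exact permutation p = 0.8, 0.9, 0.4 and 0.5). No comparison with 0 h could have passed 0.05 in this design, so the test does not decide whether the courses of IL1A and IL1B differed.

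**Figure D2:**
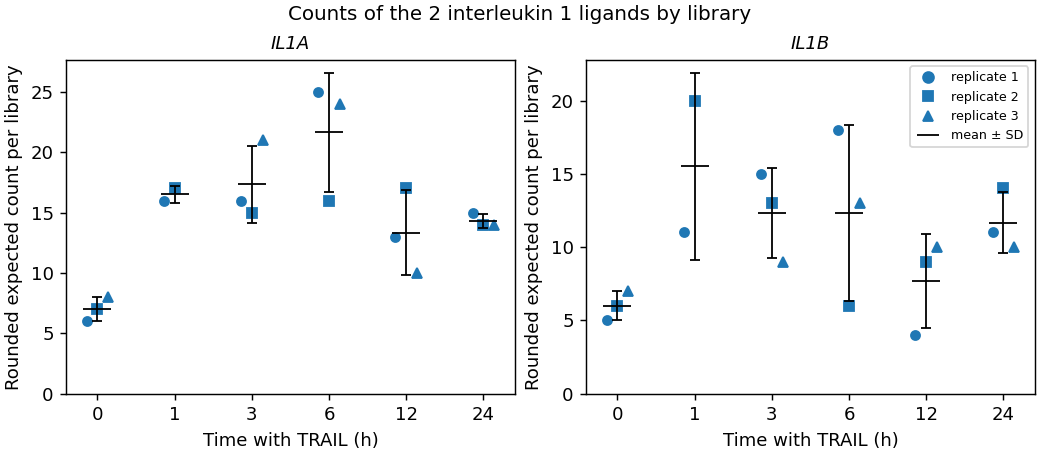
Rounded expected counts (vertical axis) of IL1A and IL1B in each of the 17 libraries by time with TRAIL (horizontal axis), with symbols for replicates and the mean ± SD of each time. All 14 later libraries exceed the 8 counts of IL1A in the highest 0 h library, whereas IL1B falls to 6 counts in 1 library of 6 h and to 4 in 1 of 12 h.

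IL18, the gene of the other caspase 1 substrate, was the most abundant of the 3 ligands and was called at none of the 5 times against 0 h. Its level was 13.3, 13.2 and 13.6 CPM in the 0 h libraries and 12.6, 9.55 and 11.1 CPM at 6 h. The 3 libraries of 6 h were thus the lowest of all 17, with a log2 fold change of -0.27 ± 0.109 (SE, adjusted p 0.0655), which passed without the 6 h replicate 1 (-0.37, 0.0208). The 3 and 12 h libraries of IL18 all lay above those of 0 h (14.1 to 15.6 and 14.05 to 14.8 CPM), without a call. At the other times its log2 fold changes lay between 0.094 (24 h) and 0.17 (1 h), with adjusted p-values of 0.385 or more. Against its neighbours in time, the 6 h level of IL18 was called: it fell by 0.41 from 3 h (adjusted p 0.00501) and rose by 0.38 to 12 h (0.0167). Of the 7 genes, IL18 and IL32 were called lower and IL1R1 and IL1RAP higher from 3 h to 6 h, a step with calls for 43.2% of all genes (22.9% higher, 20.3% lower). From 6 h to 12 h IL1A and IL1RAP were called lower and IL18 higher, beside 20.6% of all genes (8.7% higher, 11.9% lower). The rise to 12 h was not called with replicates 2 and 3 averaged at 6 h and 24 h (0.34, adjusted p 0.0797), nor when replicate 2 (0.29, 0.102) or 3 (0.38, 0.0575) of 6 h or replicate 2 of 12 h (0.36, 0.0506) was left out. The summed leukocyte markers were below their 0 h range at 6 h too, as they were at 3 and 12 h, and their part in the IL18 level was not tested.

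The receptor chain that binds the ligands, IL1R1, was lower at 3 h and higher at 24 h, with folds against 0 h of 0.785 and 1.26. Its level was 12.1, 12.3 and 12.8 CPM at 0 h, 10.8, 7.30 and 11.04 CPM at 3 h, and 14.2, 16.1 and 16.6 CPM at 24 h. Neither time overlapped with 0 h, and the lowest value at 3 h came from replicate 2, the library with the steepest negative slope on transcript length. The log2 fold change was -0.35 ± 0.117 at 3 h (SE, adjusted p 0.0446) and 0.33 ± 0.109 at 24 h (0.0245). At 1, 6 and 12 h it lay between -0.021 and 0.048, with adjusted p-values from 0.820 to 0.991.

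Both IL1R1 calls were sensitive to single libraries. Without the 3 h replicate 2, IL1R1 differed from 0 h by -0.18 at 3 h (adjusted p 0.256), and the call was also lost without any 0 h library (-0.36 to -0.33, adjusted p 0.0613 to 0.132), by DESeq2 (-0.35, 0.0537), with replicates 2 and 3 of 6 h and 24 h averaged (-0.36, 0.0546) and when only the 2 times were fitted (-0.35, 0.0864). After correction for each library's trend with transcript length and GC content the 3 h difference was -0.31 (adjusted p 0.0315), while the 24 h difference was 0.17 (0.162). From 1 h to 3 h IL1R1 differed by -0.39 (adjusted p 0.0874), and this step was called after that correction (-0.37, 0.0346) and when replicate 3 of 3 h was left out (-0.49, 0.0444). Between 3 h and 6 h IL1R1 rose by 0.33 (adjusted p 0.0288), but by 0.16 (0.217) without the 3 h replicate 2 and 0.18 (0.180) after that correction, and the step was not called without any 1 of the 6 h libraries (adjusted p 0.0508 to 0.0789), with averaged replicates (0.0745) or with only the 2 times fitted (0.0723). The 24 h call was also lost when replicate 1 or 2 of 0 h or 2 or 3 of 24 h was left out (0.28 to 0.32, adjusted p 0.0603 to 0.0981), and with the averaged replicates (0.29, 0.109). IL1R1 was counted in whole numbers in all 17 libraries, and shares 11 exonic bases with an antisense gene, IL1R1-AS1.

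The accessory chain, IL1RAP, had its highest level at 6 h and its lowest at 12 h. The 0 h libraries held 20.1, 21.8 and 26.8 CPM, those of 6 h 30.02, 33.6 and 32.1, those of 12 h 14.5, 19.7 and 19.5, and those of 24 h 16.9, 20.1 and 22.0 CPM. All 3 libraries of 6 h lay above, and all 3 of 12 h below, every 0 h library. The remaining times, 1 h (23.5 and 19.3 CPM) and 3 h (24.7, 21.4 and 26.6 CPM), overlapped with 0 h. The log2 fold change was 0.48 ± 0.126 at 6 h (SE, adjusted p 0.00878), and leaving out replicate 1 of 0 h ended this call (0.39, adjusted p 0.0519).

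The fall of IL1RAP from 6 h to 12 h was its widest step, by 0.82 on the log2 scale (SE 0.128, adjusted p 2.4e-04), and all 6 fits without 1 library of these times made this call (-0.89 to -0.71). The rise from 3 h to 6 h was 0.40 (adjusted p 0.0177). It did not pass without the replicate 2 library of 3 h (0.31, 0.0920) or of 6 h (0.36, 0.0633), with averaged replicates (0.37, 0.0620) or after correction for length and GC content (0.20, 0.0896). Against 0 h, IL1RAP was -0.34 at 12 h (adjusted p 0.0944) and -0.22 at 24 h (0.193). After the same correction these were -0.45 (adjusted p 0.00302) and -0.40 (0.00334), both called, and the 12 h value was also called without a filter (-0.34, 0.0130). IL1RAP shares 535 exonic bases with the non-coding gene AC108747.1 on the same strand, although its counts were whole in all 17 libraries.

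**Figure D3:**
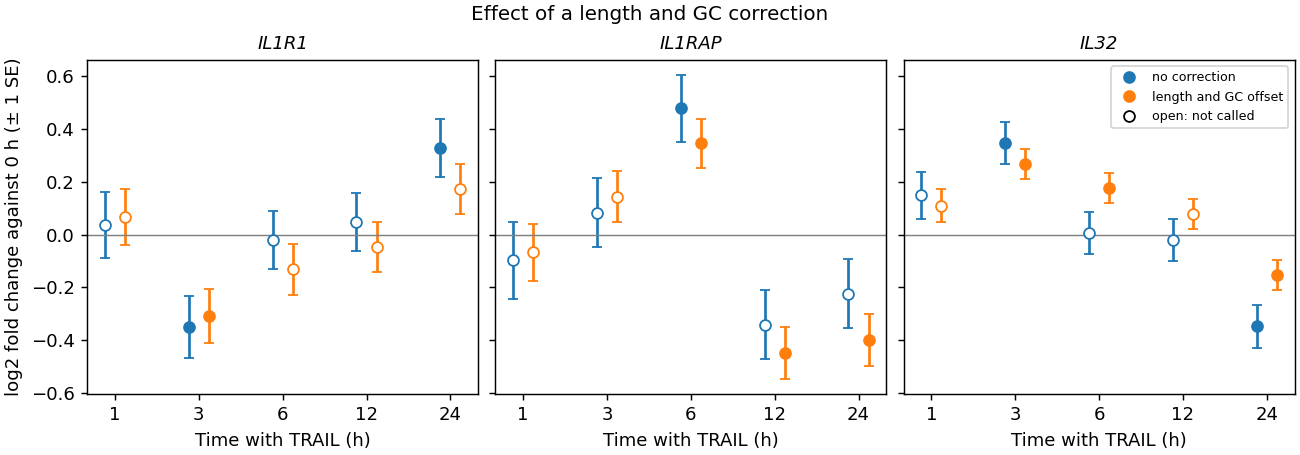
Log2 fold change against 0 h (vertical axis, bars of 1 standard error) of IL1R1, IL1RAP and IL32 at 5 times (horizontal axis), without and with an offset for each library's trend with transcript length and GC content; open points were not called. The offset moved IL1R1 at 24 h from 0.33 to 0.17, IL1RAP at 24 h from -0.22 to -0.40 and IL32 at 24 h from -0.35 to -0.15.

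IL24, a secreted cytokine of the IL10 family, was about 2-fold higher from 3 h on and stayed at that level to 24 h. In the 0 h libraries it stood at 2.86, 2.87 and 2.30 CPM. The 3 h libraries held 6.08, 5.82 and 4.88 CPM, those of 6 h 4.93, 4.84 and 6.21, those of 12 h 6.38, 4.52 and 5.22, and those of 24 h 5.39, 4.59 and 5.87 CPM. The lowest of these 12 libraries lay above the highest of 0 h. The 2 libraries of 1 h did not resemble each other, with 64 and 20 counts (4.05 and 1.33 CPM), 1 above and 1 below every 0 h library.

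For 3, 6, 12 and 24 h the log2 fold changes of IL24 against 0 h were 1.06 ± 0.251, 1.00 ± 0.247, 0.99 ± 0.246 and 0.98 ± 0.248 (SE, adjusted p 0.00748, 0.00593, 0.0136 and 0.00561). With 1 library left out the 12 calls at 3 and 6 h were all made again (0.87 to 1.15), as were the 6 at 24 h, while the 12 h call ended when replicate 3 of 0 h was left out (0.89, adjusted p 0.0515). At 1 h the log2 fold change was 0.020 ± 0.307 (adjusted p 0.998), and it was -0.997 and 0.59 without the 1 h replicates 1 and 2. The step from 1 h to 3 h, 1.04 ± 0.286 (adjusted p 0.0374), rests on those 2 libraries. It was 0.47 (adjusted p 0.298) without the 1 h replicate 2. It was not called without the 3 h replicates 1 or 2 (0.98 and 1.01, adjusted p 0.113 and 0.0900), nor when only the 2 times were fitted (1.04, 0.149). Calls from 1 h to 3 h were made for 5.73% of all genes, 3.17% higher and 0.247% higher by at least 2-fold. From 3 h on, the differences between neighbouring times were between -0.062 and -0.0072, with adjusted p-values of 0.846 or more. The expected counts of IL24 were not whole in any of the 17 libraries, as happens where RSEM divides fragments between entries, and its level is uncertain to that degree.

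IL32 was the most abundant of the 7 genes, and relative to 0 h it was higher in the 3 h libraries and lower in those of 24 h. The 0 h libraries held 59.9, 53.5 and 59.1 CPM, those of 3 h 71.3, 76.7 and 71.6, those of 6 h 61.2, 55.9 and 56.3, those of 12 h 61.6, 50.5 and 58.4, and those of 24 h 48.9, 43.6 and 42.9 CPM. All libraries of 3 h lay above, and all of 24 h below, those of 0 h, while 6 and 12 h overlapped with 0 h. At 1 h the level was 59.2 and 68.3 CPM. Per kilobase of exon it averaged 17.9 CPM at 0 h, the highest of the 7, followed by IL18 (5.08), IL1RAP (1.98), IL1R1 (1.75), IL24 (1.35), IL1A (0.205) and IL1B (0.121). The lengths behind these levels are the summed exons of all GENCODE 29 transcripts of a gene, so the order between genes with close values depends on the isoforms expressed. The levels of IL1RAP and IL1R1 per kilobase differed by less than the spread of IL1RAP (SD 0.299).

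The log2 fold change of IL32 was 0.35 ± 0.0801 at 3 h (SE, adjusted p 0.00573) and -0.35 ± 0.0814 at 24 h (0.00302). All fits without 1 library of the times compared made both calls (0.30 to 0.38, and -0.41 to -0.31). The decline came in 2 steps, of 0.34 between 3 h and 6 h (adjusted p 0.00207) and of 0.33 between 12 h and 24 h (0.0143), with no call between 6 h and 12 h (-0.027, 0.845). Calls from 12 h to 24 h were made for 12% of all genes, 5.6% lower. The later step did not pass when replicate 1 of 12 h (-0.27, adjusted p 0.0944) or replicate 2 (-0.30, 0.0732) or 3 (-0.29, 0.0757) of 24 h was left out, or with averaged replicates (-0.30, 0.0944). After correction for length and GC content the 24 h difference of IL32 was -0.15 (adjusted p 0.0448), and a difference at 6 h, 0.0071 without the correction (0.958), was 0.18 (0.0221). The step from 3 h to 6 h was then -0.091 (0.206). IL32 shares 129 exonic bases with RNU1-125P on the same strand, and its expected counts were not whole in 2 libraries (replicate 3 of 0 h and replicate 2 of 24 h). The longest IL32 transcript has 1381 bases and 58.7% GC, the shortest and the highest in GC of the 7.

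**Figure D4:**
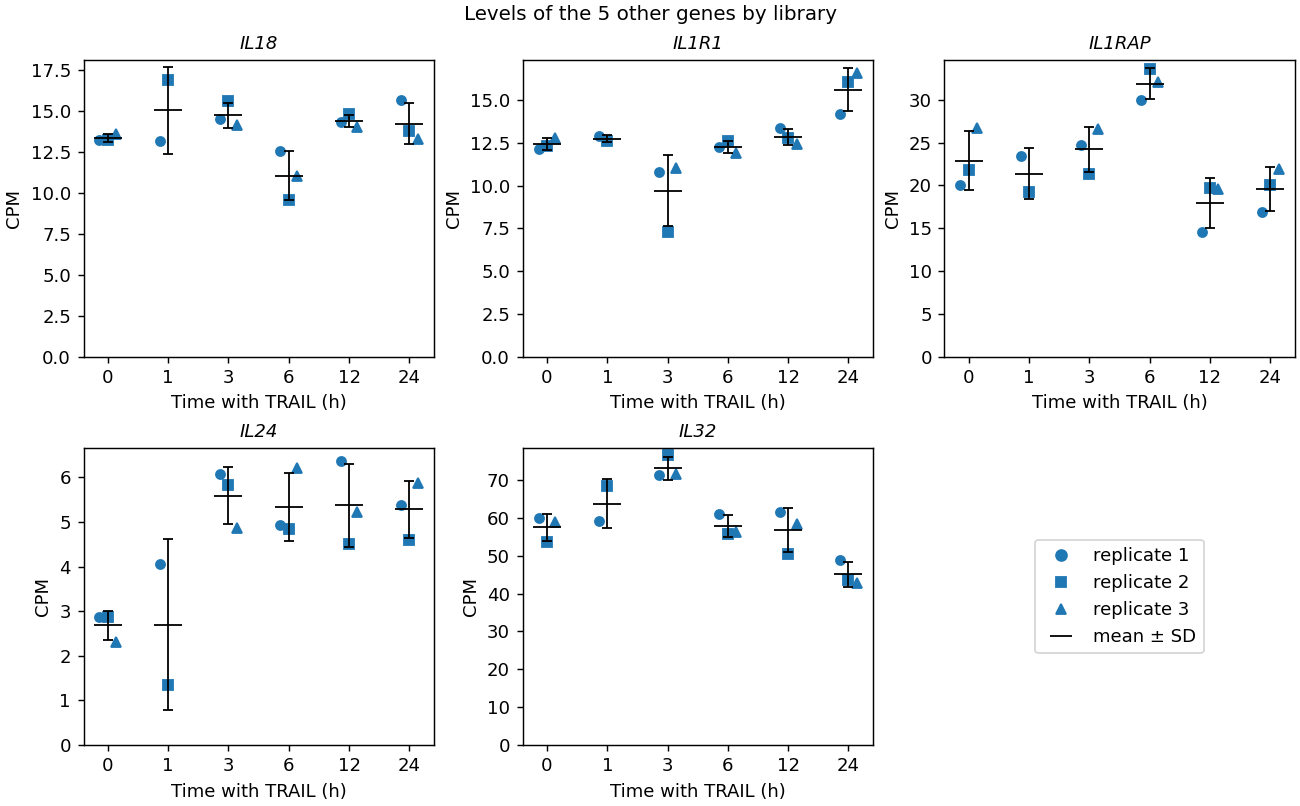
Level in CPM (vertical axis, from 0) of IL18, IL1R1, IL1RAP, IL24 and IL32 in each of the 17 libraries by time with TRAIL (horizontal axis), with symbols for replicates and the mean ± SD of each time. IL24 stands at 4.52 CPM or more in all libraries from 3 h on against at most 2.87 at 0 h, and IL1RAP peaks at 6 h.

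Other genes of the interleukin 1 system were read from lists. Of 9 other ligands and antagonists, 2 were tested, and the counts of the other 7 did not exceed 4 in any library (IL37). The antagonist gene IL1RN was tested, had at most 19 counts in a library and was not called against 0 h. The secreted inhibitor of interleukin 18, IL18BP, had mean levels of 5.17 ± 0.598, 7.45 ± 0.386 and 3.60 ± 0.554 CPM in the 0, 3 and 24 h libraries (SD, n = 3). It was called higher at 3 h (log2 fold change 0.53, adjusted p 0.0216) and lower at 24 h (-0.52, 0.0190). The shares of all genes called in these directions were 9.04% and 17.1%. Of 8 other receptors of the family, 3 were tested, of which only SIGIRR was called against 0 h. SIGIRR, a receptor that damps interleukin 1 signalling, fell to 4.01 ± 0.392 CPM in the 6 h and 5.58 ± 0.809 CPM in the 24 h libraries, from 7.53 ± 0.874 CPM (SD, n = 3, log2 fold change -0.91, adjusted p 2.8e-04, and -0.43, 0.0282). Counts of the decoy receptor gene IL1R2 did not exceed 5, and those of IL18R1, which binds interleukin 18, did not exceed 4.

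All 14 genes of the signalling chain below the receptor were tested. In order of time from 1 h, 0, 1, 6, 3 and 7 of them were called higher against 0 h, and 1 was called lower, at 3 h. The shares of all genes called higher at 6, 12 and 24 h were 16.9%, 5.96% and 18%. These calls were not examined under the correction for length and GC content. Slopes on transcript length ran from 0.011 to 0.095 at 6 h and from 0.022 to 0.13 at 24 h. At 0 h the slopes ran from -0.064 to -0.010, and their part in these calls was not tested. In all, 10 of the 14 were called at any time, but 4 without replicate 1 of 0 h, 6 without replicate 2 of 0 h, 6 without replicate 3 of 24 h and 5 with averaged replicates. The list's medians were -0.059, -0.076, 0.23, 0.12 and 0.24, beside medians of all genes between -0.022 and -0.0017. IRAK2, a kinase that joins MYD88 at the receptor, had the widest change. From 13.2 ± 1.59 CPM at 0 h, IRAK2 went to 17.8 ± 1.45, 30.5 ± 1.64, 19.6 ± 1.63 and 25.6 ± 2.11 CPM in the libraries of 3, 6, 12 and 24 h (SD, n = 3). Its log2 fold changes were 0.44, 1.21, 0.57 and 0.95 (adjusted p 0.0106, 1.5e-07, 0.00191 and 3.8e-06). The lowest change among the genes called at 24 h was that of IRAK1, another kinase of the complex (0.23, adjusted p 0.0145).

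Of 18 genes for processing and release of the cytokines, 14 were tested. CASP1, the gene of caspase 1, was tested but had at most 14 counts in a library and was not called against 0 h. At 6 h 1 was called higher and 5 lower, at 24 h 2 higher and 4 lower, at 3 h 1 lower, and at 1 h and 12 h 0. Of all genes, 16.9% were called higher and 13.2% lower at 6 h, and for 24 h these shares were 18% and 17.1%. PYCARD, the adaptor of inflammasomes, fell by 0.74 on the log2 scale at 6 h (adjusted p 0.00555), from 8.28 ± 1.21 to 4.98 ± 0.853 CPM (SD, n = 3). NLRP3, an inflammasome sensor, was the 1 gene called higher at 6 h (0.56, 0.0186). AIM2, a sensor of DNA in the cytosol, was lower at 6 h (-0.62, 0.00299) and higher at 24 h (0.49, 0.00654), and NLRP1 was lower at 24 h (-0.43, 0.00227). The medians of this list were 0.021, -0.037, -0.21, -0.043 and -0.016 at the 5 times.

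Around IL24, 4 of 8 listed relatives, receptor chains and signalling genes were tested. Its relatives IL10, IL19 and IL20 did not exceed 1 count, and the receptor chain IL20RA did not exceed 8. IL20RB, the chain common to the IL24 receptors, was tested, had at most 12 counts and was not called against 0 h. The receptor's signalling genes JAK1 and STAT3 were called higher at 6, 12 and 24 h, beside 16.9%, 5.96% and 18% of all genes. STAT3 rose by 0.55 (adjusted p 7.8e-06), 0.24 (0.0177) and 0.53 (1.1e-05) and JAK1 by 0.20 (0.0309), 0.24 (0.0212) and 0.36 (5.2e-04). At 3 h the receptor chain IL22RA1 was called lower (-0.998, adjusted p 0.0276), beside 8.71% of all genes. It had only 17 to 22 counts at 0 h and 5 to 11 at 3 h. It falls outside the rule for named genes and was chosen after its value was seen. Its call was not examined by itself in the alternatives.

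For the 3 genes called with at least a 2-fold change, the genes with the most similar course over the 17 libraries were found by the root mean square difference of centred log2 CPM. For IL1A they were IL6 (0.233), TIPARP (0.247) and CD274 (0.294), where IL1A itself deviated from its mean by 0.503. IL6, another inflammatory cytokine, had log2 fold changes of 0.84, 1.63, 1.37, 0.54 and 0.84 at the 5 times, beside 1.28, 1.55, 1.57, 0.80 and 1.02 for IL1A, from the same 0 h libraries. For IL24 they were IL11 (0.314), GATA2 (0.325) and BCL3 (0.346), with 0.565 for IL24 itself. IL11, a cytokine of the IL6 type, had log2 fold changes of -0.021, 1.48, 1.00, 0.79 and 1.15. For IL1B the nearest were AL589743.1 (0.355), CDK3 (0.356) and NFKBIA (0.388), where IL1B itself deviated by 0.540.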

How the data were processed

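RNA of 17 libraries was measured by paired-end sequencing with a stranded mRNA kit, per the labels' protocols. The authors deposited 1 table of gene-level expected counts (estimated fragments per gene, by RSEM per the file name), not scaled to depth or length, of which 30.6% of the values above 0 were not whole. Tools named in the submitters' processing notes are cutadapt 1.18 and STAR 2.7.0f, with the build hg38. Which annotation and strand option the counting used is not given in the sources used here. Of 58870 entries, 58597 matched GENCODE 29 when the identifier's version was ignored.

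Expected counts were rounded, filtered with filterByExpr and scaled by TMM, and all 17 libraries entered 1 edgeR fit with a coefficient for each time (edgeR 4.0.16, R 4.3.3, quasi-likelihood, robust). P-values were adjusted by the Benjamini-Hochberg method over all 15365 genes kept, separately in each comparison. All 7 genes described passed the filter. The model was tested on simulated data with known 2-fold changes at 3 h. All genes were simulated with the same spread, and the outcome was not read for low-count genes such as IL1A and IL1B. No replicate pair was as close as counting noise allows (chi-square per gene from 1.57 to 13.5), the closest being replicates 2 and 3 of 6 h (1.57) and of 24 h (1.67). For the ratio of IL1B to IL1A, 0.5 was added to each count. Similar courses were sought among genes whose log2 CPM averaged 2 or more. They were compared as log2 CPM with a prior count of 2, which narrows the swings of low-count genes such as IL1A and IL1B. The log2 fold changes given with them came from the edgeR fit.

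The genes, lists and alternatives were chosen with earlier results of these data known. Besides all 7 genes, listed genes could be named when called with a 2-fold change, or when highest or lowest among the called genes of their list at a time with most calls. Some listed genes were also named, outside this rule, for their low counts. The alternatives were RLE size factors, library size alone, no filter, a filter on the mean count (10 or more), limma-voom (limma 3.58.1), DESeq2 1.42.0, fits of the 2 times compared, the replicate number as a block, averaged replicates, an offset for transcript length and GC content, 5 added to each count of the ratio, and each library left out in turn.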

Additional observations from a re-analysis of the deposited data

How the results depend on the processing

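The 3 and 6 h rises of IL1A were called in every alternative that gave an adjusted p. Except for the fit without a filter, these fits kept IL1A through its later libraries. Its 0 h counts of 6, 7 and 8 fell short of the filter's 10. Of the 7 genes, 5 were called at 3 h against 0 h, but 2 by DESeq2 (which gave an adjusted p for 5 of them, not for IL1A or IL1B) and 3 with only the 2 times fitted (6 genes tested). At 12 h the 1 call became 2 without a filter and 2 with the length and GC offset. The offset gave 2 calls from 1 h to 3 h and 1 from 3 h to 6 h, against 1 and 4, and fitting only the 2 times gave 0 from 1 h to 3 h. With replicates 2 and 3 averaged, calls numbered 2 at 24 h, 2 from 3 h to 6 h, 1 from 6 h to 12 h and 0 from 12 h to 24 h, against 4, 4, 3 and 1. Averaging gave 5 called genes of the signalling chain, and no filter gave 2 of the other receptors. The lists were not counted with the offset or with only the 2 times fitted. Leaving out 1 library gave 3 to 5 calls at 3 h, 2 to 4 at 6 h, 0 to 1 at 12 h and 2 to 4 at 24 h. It gave 0 to 2, 2 to 4, 1 to 2 and 0 to 2 between successive times from 1 h on, and 6 to 7 over all times. For the lists it gave 1 to 2 of the other ligands and antagonists, 1 to 2 other receptors and 4 to 11 genes of the signalling chain. The count of 2 in the list of other ligands and antagonists came without replicate 1 of 6 h. The 2 receptors came without it or replicate 1 or 2 of 24 h. The ratio of IL1B to IL1A then ran from -0.31 to 0.44 at 1 h and from -0.48 to 0.065 at 3 h.

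Some small differences that were not called changed sign. With library size alone these were IL1R1 at 1 h (-0.0085), IL24 at 1 h (-0.021), IL32 at 12 h (0.014), IL24 from 3 h to 6 h (0.0091), from 6 h to 12 h (0.024) and from 12 h to 24 h (0.027), IL32 from 6 h to 12 h (0.0048) and IL18 from 12 h to 24 h (0.026). With the offset they were IL24 at 1 h (-0.0067), IL1R1 at 12 h (-0.046), IL32 at 12 h (0.077), IL24 from 3 h to 6 h (0.099) and from 12 h to 24 h (0.061), and IL18 from 12 h to 24 h (0.076). By limma-voom they were IL24 at 1 h (-0.17) and from 12 h to 24 h (0.0034). The remaining ones were IL32 at 6 h with only the 2 times fitted (-0.0017), IL24 from 6 h to 12 h by DESeq2 (0.0047), averaging (0.021) and the 2 times (0.014), and IL18 from 12 h to 24 h by averaging (0.021). Leaving out 1 library turned the sign within -0.027 to 0.35 for IL18, -0.24 to 0.032 for IL1RAP and -0.997 to 0.59 for IL24 at 1 h, -0.040 to 6.5e-04 for IL1R1 and -0.042 to 0.037 for IL32 at 6 h, and -5.4e-04 to 0.41 for IL1B and -0.087 to 0.061 for IL32 at 12 h. Between neighbouring times it did so within -0.54 to 0.40 (IL1B) and -0.20 to 0.17 (IL18) from 1 h to 3 h, -0.12 to 0.15 (IL1A) and -0.19 to 6.0e-04 (IL24) from 3 h to 6 h, -0.14 to 0.12 (IL24) and -0.092 to 0.054 (IL32) from 6 h to 12 h, and -0.091 to 0.033 (IL18) and -0.13 to 0.12 (IL24) from 12 h to 24 h. The cause was not tested.

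Libraries with the same replicate number did not deviate together (correlations of deviations from -0.16 to 0.18, with no comparison in which all pairs exceeded 0.1), so the numbers were not taken as pairs. With the replicate block, the IL1B call at 3 h (1.28, adjusted p 0.0546), the IL1A call from 6 h to 12 h (-0.77, 0.0595) and the IL1B call over all times (0.0595) were lost, and IL24 at 1 h was -0.0032. Depth limits IL1A and IL1B most, with at most 25 and 20 counts in a library.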
